A study of Mus musculus with 128 samples.

Results

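Keratins are the proteins of the intermediate filaments of epithelial cells, and keratin-associated proteins are the small cross-linked proteins that embed those filaments in hair. The genes described here were all symbols that begin with Krt or Krtap followed by a digit, pseudogene symbols left out, with a mean of 10 or more normalised reads in at least 1 of 8 tissues. Of 55285 gene symbols in each tissue's table, 112 matched the name and 100 reached the mean: 48 keratin genes and 52 keratin-associated protein genes. Just inside the limit lay Krtap1-4 with a highest tissue mean of 10.2 and Krtap20-2 with 11.1, and just outside it Krtap4-13 with 9.19 and Krt20 with 8.76. The rule used the level of a gene, which a single high library can lift, and not its change with age.

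RNA was sequenced from skin, gastrocnemius muscle, kidney, liver, lung, heart, aorta and brain of male wild-type C57BL/6J mice aged 6, 15, 24 and 30 months, with no treatment at any age. The Aorta records themselves give age alone, and their sex and strain come from the description of the whole series. There were 4 libraries for each tissue and age, 128 in all, each made from frozen tissue that was pulverised and extracted whole. The labels do not say that replicates were separate animals, so p-values measure the spread between these libraries. Whole tissue holds many cell types, so fewer cells of a type and less RNA per cell cannot be told apart in any value below.

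A keratin filament is built from pairs of a type I (acidic) and a type II (basic) keratin, and each epithelium has its own pairs. KRT8 and KRT18 are the pair of simple epithelia such as hepatocytes and kidney tubules, KRT5 and KRT14 that of the basal layer of the epidermis, and KRT1 and KRT10 that of the layers above it. Hair is made in the bulb of the follicle during its growth phase: matrix cells divide and differentiate into the inner root sheath, with its own keratins, and into the shaft, with hair keratins and then keratin-associated proteins. Mouse hair grows in cycles, and a follicle at rest makes no new shaft. A further set, KRT6A, KRT6B, KRT16 and KRT17, belongs to the outer root sheath and companion cells of the follicle and appears in the epidermis after wounding.

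Members were placed in 9 classes by symbol: 9 type I hair keratins, 6 type II hair keratins, 8 inner root sheath keratins, 52 keratin-associated proteins, 3 basal and 7 suprabasal epidermal keratins, 6 stress and outer root sheath keratins, 4 simple keratins and 5 mucosal and other keratins. The 98 members with a RefSeq location lay in few places: 44 on chromosome 11, 24 on chromosome 15, 22 on chromosome 16, 4 on chromosome 7, 3 on chromosome 10 and 1 on chromosome 1. All 24 on chromosome 15 were keratins and all 22 on chromosome 16 were keratin-associated proteins, whereas chromosome 11 held 24 keratins and 20 keratin-associated proteins. Krt8 and Krt18 are neighbours: among protein-coding genes, Krt8 lies between Krt78 and Krt18.

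The upstream sequences of many hair follicle members hold a TATA box. RefSeq promoters (GRCm38.p6) were matched for 76 of 100 members, and the 250 bases before the start were searched on both strands. The TATA box letters TATAAA were found in 51 of 76 members (67.1%) and in 3872 of 27025 genes of the whole RefSeq table (14.3%). They were present in all 7 inner root sheath keratins, 36 of 45 keratin-associated proteins (80%) and 5 of 7 type I hair keratins, and in none of 3 simple, 2 basal and 2 stress keratins with an entry. On the gene's own strand, 49 members held the box, and in 39 of them its first base lay between 45 and 25 bases before the start. The median over the 49 was 31. Where a member held several boxes, only the box nearest a fixed position inside that range was taken, which favours this result. The letters CTTTGA, a core bound by the LEF and TCF factors of Wnt signalling, were found in 5 of 7 type I hair keratins (71.4%), 12 of 45 keratin-associated proteins (26.7%), 1 of 7 inner root sheath keratins (14.3%), none of 2 type II hair keratins and 15.8% of all genes. GGGCGG, the GC box, was found in 2 of 76 members (2.63%) and 35.4% of all genes. A match describes letters and shows no binding.

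The last 150 bases before the start are shown for 3 hair follicle genes with TATAAA and 3 keratins of other epithelia without those exact letters. The values below turn on these genes. Near matches were not searched, and Krt18 holds the letters tataac close to its start. Capitals mark TATAAA and CTTTGA, all sequences are 5′ to 3′ on the gene's strand, and positions are GRCm38.p6. Krt34 (hair shaft) lies at chr11:100041555-100041704 (minus strand), Krt71 (inner root sheath) at chr15:101743098-101743247 (minus strand), Krtap8-1 (shaft matrix) at chr16:89487953-89488102 (minus strand), Krt14 (basal epidermis) at chr11:100206031-100206180 (minus strand), Krt8 at chr15:102004343-102004492 (minus strand) and Krt18 at chr15:102028066-102028215 (plus strand).
Krt34: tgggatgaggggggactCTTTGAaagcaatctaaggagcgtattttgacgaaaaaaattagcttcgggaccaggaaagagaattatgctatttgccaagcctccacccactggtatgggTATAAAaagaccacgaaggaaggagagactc
Krt71: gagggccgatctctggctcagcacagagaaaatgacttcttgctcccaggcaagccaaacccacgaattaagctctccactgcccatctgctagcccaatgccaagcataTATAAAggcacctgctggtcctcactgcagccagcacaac
Krtap8-1: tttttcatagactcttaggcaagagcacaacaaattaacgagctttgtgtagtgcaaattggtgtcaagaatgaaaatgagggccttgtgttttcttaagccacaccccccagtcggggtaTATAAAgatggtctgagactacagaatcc
Krt14: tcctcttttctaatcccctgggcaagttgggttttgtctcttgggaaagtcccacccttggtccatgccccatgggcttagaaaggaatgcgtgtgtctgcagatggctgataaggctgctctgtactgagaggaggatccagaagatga
Krt8: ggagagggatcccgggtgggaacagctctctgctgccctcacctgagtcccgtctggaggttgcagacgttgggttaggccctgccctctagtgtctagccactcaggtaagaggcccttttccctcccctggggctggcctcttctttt
Krt18: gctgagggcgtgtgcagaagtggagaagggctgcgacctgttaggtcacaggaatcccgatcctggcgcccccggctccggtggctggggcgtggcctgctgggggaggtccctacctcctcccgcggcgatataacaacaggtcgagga

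**Figure D1:**
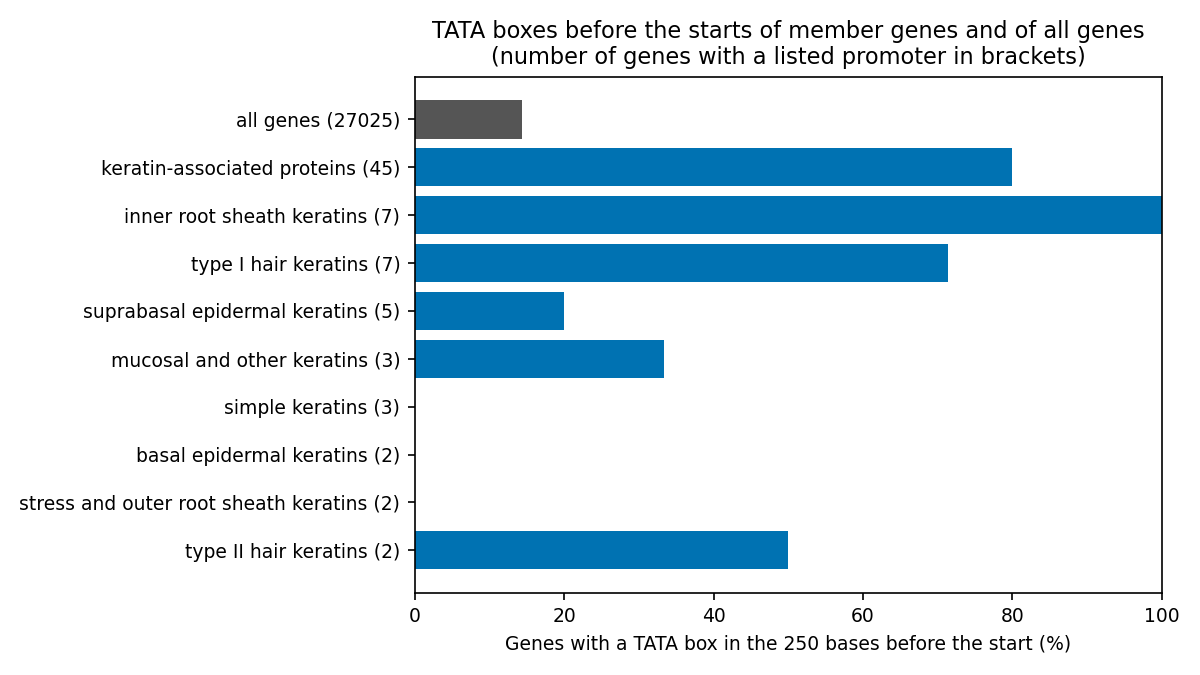
Each bar gives the percentage of genes with a TATA box in the 250 bases before the start, for all RefSeq genes (grey) and for each class of members (blue), with the number of genes in brackets. The inner root sheath bar reaches 100% and the keratin-associated protein bar 80%, against 14.3% for all genes.

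The deposited values are normalised reads, that is reads divided by a size factor for each library within a tissue's table, and libraries held 7.65 to 82.8 (median 15.6) when recovered reads are counted in units of 1000000. A log2 change is the difference of mean log2(normalised reads + 1) from 6 months, given with its standard error (SE), and understates the change of low genes. Adjusted p-values are Benjamini-Hochberg values from limma over all genes tested in that tissue, and a gene was called at an adjusted p below 0.05. Libraries that stood apart in members were 24-month replicates 1 and 2 and 15-month replicate 3 of Skin, 24-month replicate 4 of Muscle, 30-month replicate 3 of Liver and 30-month replicate 4 of Lung. Over all genes, 24-month replicate 4 of Heart had the lowest median rank correlation with the other libraries of its tissue (0.914) and the fewest reads. Called changes of members at the ages of these libraries are given below without them too. Skin 6-month replicate 2 was high in epidermal keratins. Its basal keratins summed to 233000 normalised reads, against 70360 to 150800 in the other Skin libraries, and it was highest in 5 of 7 suprabasal members. Changes of epidermal keratins that were not called are not given without it. Marker sums fitted the labels: skin markers summed to 81250 to 183200 normalised reads over Skin libraries, and skeletal muscle markers to 1426000 to 1930000 over Muscle libraries.

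Skin carried nearly the whole group. A mean of 10 or more was reached by 97 members in Skin and by 81 members in Skin alone, against 13 in Lung, 11 in Brain, 10 in Kidney, 8 in Aorta, 7 in Liver, 6 in Muscle and 4 in Heart. Krt12, the keratin of the cornea, Krt9, the keratin of palms and soles, and Krt222 were the members under 10 in Skin. Per kilobase of exon, the highest Skin means were Krt14 with 23890 normalised reads, Krt15 with 21700, Krt5 with 16910, Krt77 with 15850 and Krt10 with 13460.

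Hair shaft, inner root sheath and keratin-associated protein genes swung widely from one Skin library to the next, and they did so together. Of the 74 of these 75 genes that were tested, none was called against 6 months at 15, 24 or 30 months, where 0.173%, 1.84% and 0.72% of all Skin genes were. Groups that did not overlap those at 6 months were seen for 0, 0 and 1 of the 74, against 6.98%, 9.1% and 7.38% of all Skin genes. Between the highest and the lowest of the 16 Skin libraries, the median fold (of value + 1) was 673 for type I hair keratins, 1070 for type II hair keratins, 1347 for inner root sheath keratins and 531 for keratin-associated proteins. It was 3.34 for basal keratins, 4.53 for suprabasal keratins, 5.23 for stress keratins and 6.95 for simple keratins. Over 100-fold were 68 of these 75 hair and sheath genes, and, of the rest, Krt6b alone. Summed over the 75, 24-month replicate 1 held 140900 normalised reads (1.01% of its reads) and 24-month replicate 2 held 84520 (0.675%), whereas 30-month replicate 2 held 366 (0.00255%). Of the 75 genes, 68 had their highest value in one of those 24-month libraries, and in 43 genes they were the 2 highest. These counts and the folds follow in part from the rule, since a high library can lift a mean past 10. Krtap19-9a, for example, had a mean of 11.5, a median of 1.09 and 93 in 24-month replicate 1. The other 24-month replicates, 3 and 4, held 1068 and 6949, less than 15-month replicate 4 with 50380 and 6-month replicate 3 with 45960.

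**Figure D2:**
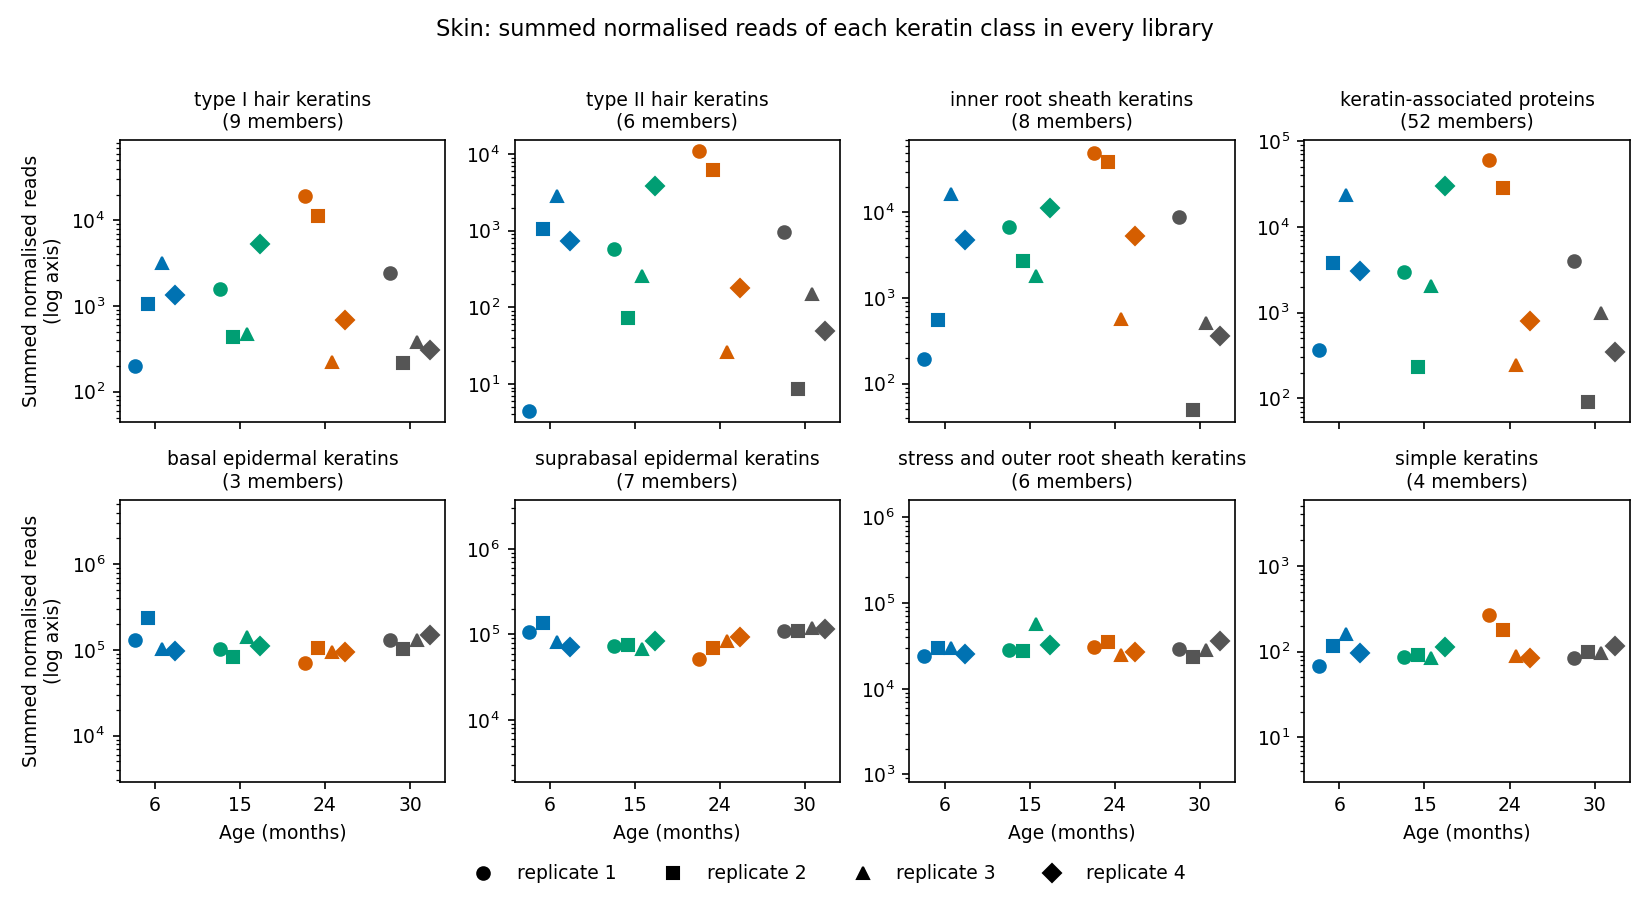
Each point is a Skin library, with age in months on the horizontal axis and the summed normalised reads of a class on a logarithmic vertical axis. Hair shaft, inner root sheath and keratin-associated protein sums scatter widely within each age, and 24-month replicate 1 is the highest point in each, whereas the basal and suprabasal sums stay within a narrow band.

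Hair shaft keratins are shown by Krt34, a type I keratin of the shaft cortex. It measured 1.11, 167, 603 and 89 normalised reads in the libraries at 6 months and 101, 12.9, 47.4 and 1040.2 at 15 months. At 24 months the values were 2739, 1236, 11.5 and 23.9, and at 30 months 168, 0, 12.1 and 12.7. Each age held at least 1 library above 100 and 1 below 20, so no age stood apart. The log2 change at 30 months was -2.33 ± 2.03 (SE, adjusted p = 0.7), with a 95% interval from -6.64 to 1.98. Krt83, a type II partner in the cortex, followed the same libraries: 1.11, 228, 793 and 236 at 6 months, 159, 19.3, 75.1 and 916 at 15, 2923, 1849, 5.77 and 44.8 at 24 and 303, 3.63, 30.2 and 12.7 at 30 months. Its log2 change at 30 months was -1.81 ± 2.04 (SE, adjusted p = 0.782). Krt33a, another cortex keratin, had a log2 change of -1.68 ± 2.09 (SE, adjusted p = 0.806), and reached 5082 in 24-month replicate 1. Krt35, an early type I keratin of the forming shaft, measured 2.42 in 30-month replicate 2 and 5032 in 24-month replicate 1. Krt81, Krt86 and Krt87, further type II hair keratins, had negative changes too, of which that of Krt81 was -2.11 ± 2.02 (SE, adjusted p = 0.734). Krt32, a keratin of the hair cuticle, kept the narrowest range of the hair keratins, 101 to 1272, or 12.4-fold.

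Inner root sheath keratins hold the layer that shapes the growing shaft. Krt71 measured 61.2, 158, 4382 and 1509 at 6 months and 2169, 783, 589 and 3651 at 15 months. It then measured 14359.8, 13156, 126 and 1598 at 24 months and 3130.2, 12.1, 134 and 124 at 30 months. The same pair of 24-month libraries was highest, and the log2 changes were 2.30 ± 1.69 (SE, adjusted p = 0.5) at 24 and -1.64 ± 1.69 (SE, adjusted p = 0.761) at 30 months. Krt25, its type I partner, spanned 3.63 to 13821 and had a log2 change of -1.78 ± 1.75 (SE, adjusted p = 0.743) at 30 months. Krt27 had a log2 change of -1.71 ± 1.67 (SE, adjusted p = 0.739) and Krt73 of -2.38 ± 1.81 (SE, adjusted p = 0.643).

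Keratin-associated proteins form the matrix between the shaft filaments. Krtap8-1, of the family rich in glycine and tyrosine, measured 13.4, 275, 2725 and 717 at 6 months and 288, 19.3, 304 and 3595 at 15 months. At 24 months it measured 7145, 3343, 9.07 and 87.7, and at 30 months 493, 0, 63.8 and 24.4. Replicate 1 at 30 months stood far above the others, of which 1 was at 0. The log2 change was -3.30 ± 2.24 (SE, adjusted p = 0.592), with a 95% interval from -8.06 to 1.45. Krtap7-1, of the same kind, had a log2 change of -2.75 ± 2.29 (SE, adjusted p = 0.681), Krtap14 of -2.13 ± 2.38 (SE, adjusted p = 0.779) and Krtap15 of -2.07 ± 2.42 (SE, adjusted p = 0.79). Of 51 keratin-associated proteins tested, 45 had a negative log2 change at 30 months, with a median of -1.89 beside 0.001 over all genes, and none was called. The median standard error over tested members in Skin was 1.77, against 0.187 over all genes. Krtap3-2 was the gene whose groups did not overlap, with 244, 342, 495 and 178 at 6 months and 118, 67.8, 93.1 and 88 at 30 months, and it was picked for that after its values were seen. Its log2 change was -1.69 ± 0.61 (SE, adjusted p = 0.222). Many keratin-associated protein genes are close copies of each other, and reads can be shared between copies.

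**Figure D3:**
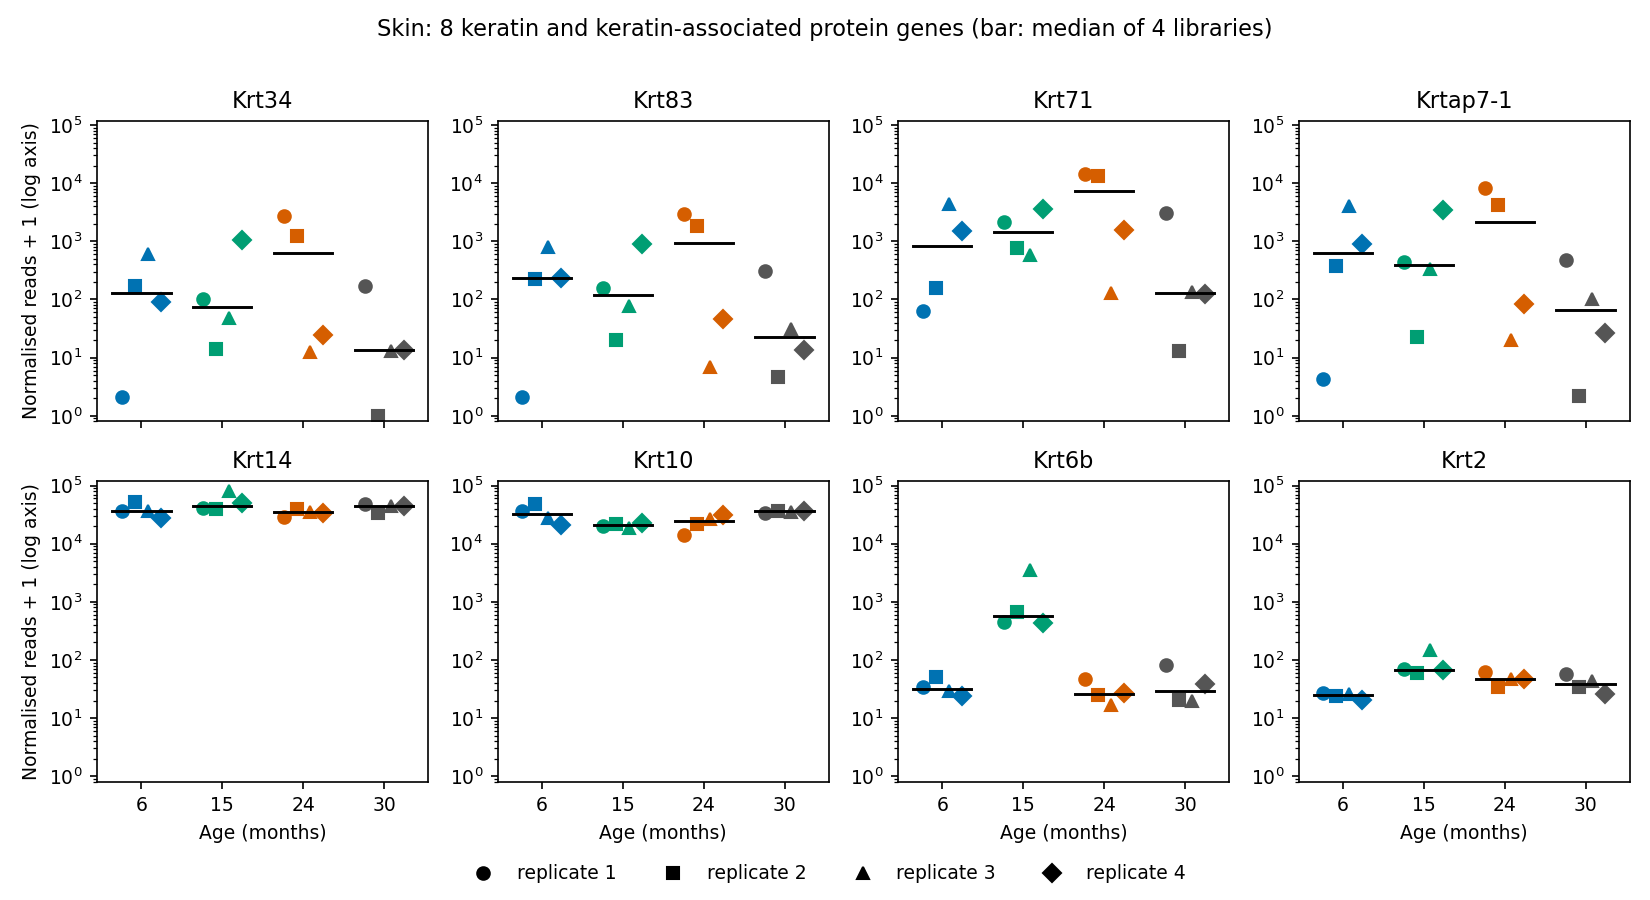
Normalised reads + 1 on a logarithmic axis against age in months for Krt34, Krt83, Krt71, Krtap7-1, Krt14, Krt10, Krt6b and Krt2 in Skin, with a point per library and a bar at the median of 4. The first 4 genes overlap between all ages, and Krt14 and Krt10 form narrow bands. The 30-month points of Krt10 lie above its 15-month and 24-month points, and the 15-month points of Krt6b lie above those of the other ages.

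The 3 hair classes did not move in one proportion. The ratio of summed inner root sheath to summed hair shaft keratins was 0.259 in 6-month replicate 2, where the shaft keratins summed to 2117 and the sheath keratins to 547. It was 6.13 in 24-month replicate 4, with 862 for the shaft and 5286 for the sheath, and 5.35 in 15-month replicate 2. In the 2 libraries with the most hair keratin, 24-month replicates 1 and 2, it was 1.66 and 2.21. Keratin-associated proteins summed to 0.396 times the shaft keratins in 30-month replicate 2 and to 3.89 times in 6-month replicate 3. These ratios compare sums within a library, without correction for gene length.

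At the level of classes, the median log2 change at 30 months was -1.68 for type I hair keratins, -1.91 for type II hair keratins and -1.75 for inner root sheath keratins. At 24 months the medians were 1.0, 1.04 and 2.18, and at 15 months 0.47, 0.38 and 1.13. Over all Skin genes the medians were between -0.01 and 0.01. The 24-month values turn on single libraries: without replicate 1 the medians were 0.01, -0.33 and 1.28, and without replicate 2 they were 0.13, -0.07 and 1.41. For keratin-associated proteins the 24-month median was 1.06, and -0.37 and 0.11 without those libraries. Krtap8-1 had a log2 change at 24 months of 0.37 ± 2.24 (SE, adjusted p = 0.95), which was -1.04 without 24-month replicate 1 and -0.68 without replicate 2. Krt34 had 1.44 ± 2.03 (SE, adjusted p = 0.751), with 0.14 and 0.52 without those libraries, and for Krt71 the values without them were 1.46 and 1.5.

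Other genes of the hair follicle were set beside these members. Hair shaft and sheath partners, 14 genes such as trichohyalin, summed to 44530 and 28730 in 24-month replicates 1 and 2 and to 3103 to 17920 in the other 14 libraries. Matrix regulators, 14 genes, summed to 12380 and 13160 in the same 2 libraries and to 5075 to 8296 in the rest, and 1 was called higher at 24 months: Shh, a signal of the growing bulb, by 4.66 ± 1.02 (SE, adjusted p = 0.0318). Pigment genes of melanocytes, which feed the growing shaft, had 3 of 8 members higher at 24 months: Tyr by 3.43 ± 0.78 (SE, adjusted p = 0.0379), Slc45a2 by 2.97 ± 0.68 (SE, adjusted p = 0.0379) and Dct by 1.55 ± 0.38 (SE, adjusted p = 0.0495). Cell division genes had 5 of 12 members higher at 24 months, among them Cdk1 by 1.39 ± 0.27 (SE, adjusted p = 0.021). Fgf18, a signal of the resting follicle, was lower at 24 months, with a log2 change of -1.93 ± 0.31 (SE, adjusted p = 0.0135). Without 24-month replicate 1 none of these 10 calls was kept, and without replicate 2 that of Fgf18 alone was (adjusted p = 0.0484). The changes without replicate 1 were 4.46 for Shh (adjusted p = 0.102), 2.84 for Tyr (adjusted p = 0.129), 1.15 for Cdk1 (adjusted p = 0.0691) and -1.76 for Fgf18 (adjusted p = 0.053). Over all Skin genes, the 310 calls at 24 months became 19 and 31 without replicates 1 and 2. Tissue makeup differed as well: striated muscle markers spanned 19850 to 138600 over the libraries, adipocyte markers 7981 to 33940 and dermal fibroblast markers 20870 to 238700. Part of this went with age. Fibroblast sums had medians of 162900, 123100, 85230 and 35140 at 6, 15, 24 and 30 months. Epidermal genes other than keratins had medians of 255200, 225800, 203600 and 293600. Muscle and adipocyte medians had no steady order of ages. The part of these markers in the swings of the hair genes and in the differences between ages was not tested.

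Outside the hair classes the spread between libraries was far smaller, and the few calls in Skin fell there. Of 96 members tested in Skin among 16804 genes, 2 were called at 15 months, both higher (0.173% of all genes called, 0.161% higher), 0 at 24 months (1.84%) and 0 at 30 months (0.72%). At an unadjusted p below 0.05 the counts were 9, 5 and 7. DESeq2 called 6, 1 and 0, and edgeR 2, 0 and 0. A difference among the 4 ages was called for 2 members (2.65% of all genes), 14 at an unadjusted p, and DESeq2 called 10.

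The basal pair was not called at any age. Krt14 measured 36945, 52476, 36245 and 27538 at 6 months and 48110.4, 33218, 44109.7 and 43779.8 at 30 months, a log2 change of 0.17 ± 0.24 (SE, adjusted p = 0.835). Krt5 measured 42866, 84496, 29403 and 28262 at 6 and 40677, 34483, 40608 and 46277 at 30 months, a change of -0.05 ± 0.27 (SE, adjusted p = 0.966). Krt15, a keratin of basal cells and of the stem cell bulge of the follicle, measured 51602, 96021, 37552 and 40932 at 6 months, 32316, 16899, 22426 and 28477 at 15 and 16336, 29955, 29159 and 29340.2 at 24 months. At 30 months it measured 40455, 33860.1, 47374 and 60786. The 15-month and 24-month libraries were all below the lowest 6-month library, and the 30-month libraries overlapped the 6-month ones. Its log2 change was -1.11 ± 0.30 (SE, adjusted p = 0.128) at 15 months and -1.05 ± 0.30 (SE, adjusted p = 0.0817) at 24 months, neither called, whereas DESeq2 called both (adjusted p = 0.008 and 0.0071).

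Of the suprabasal keratins of the differentiating layers, Krt10 and Krt1 were not called at any age. Krt10 measured 36874, 48986, 27566 and 21129 at 6 months, 14345, 22207, 26805 and 31296 at 24 and 33784, 36988, 35184 and 37061 at 30 months, and its change at 30 months was 0.16 ± 0.24 (SE, adjusted p = 0.853). At 15 months it spanned 18440 to 22600. Every 30-month library was thus above every library at 15 and 24 months, a difference that was not tested. Krt1, its type II partner, had a log2 change of -0.12 ± 0.32 (SE, adjusted p = 0.926). Krt77 measured 48549, 51609.9, 42523 and 39362 at 6 months and 57190.2, 59009, 66930.0 and 58992 at 30 months, where all 4 libraries were above all at 6 months. That change of 0.42 ± 0.17 (SE, adjusted p = 0.288) was not called, and limma-voom with quality weights called it. Krt80, a keratin of many epithelia, had a log2 change of -0.05 ± 0.27 (SE, adjusted p = 0.966). Other epidermal genes, loricrin among them, had 1 member called: Dsg1a, a desmosomal cadherin, was lower at 24 months, with a log2 change of -0.66 ± 0.15 (SE, adjusted p = 0.0376). Without 24-month replicate 1 or 2 that call was lost (adjusted p = 0.125 and 0.108).

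Both Skin calls at 15 months were for Krt6b, a stress keratin, and Krt2, a suprabasal one. Krt6b measured 33.4, 48.9, 27.7 and 22.9 at 6 months and 448, 679, 3581 and 424 at 15 months. It measured 46.1, 24.2, 15.7 and 25.9 at 24 months and 81.4, 19.4, 19 and 37.1 at 30 months. All 4 libraries at 15 months were above all 12 others, with replicate 3 the highest. The log2 change at 15 months was 4.65 ± 0.59 (SE, adjusted p = 0.00421), and without 15-month replicate 3 it was 3.94. Krt2, a keratin of the uppermost living layers in ear, tail and sole skin, measured 25.6, 22.6, 24.5 and 19.2 at 6 months and 69.1, 57.8, 149 and 65.4 at 15 months. Its change was 1.75 ± 0.30 (SE, adjusted p = 0.0352). Without 15-month replicate 3 it was 1.45, with an adjusted p of 0.0842, and the call was also lost without any single 6-month library, replicate 4 at 24 months or 3 at 30 months (adjusted p up to 0.107). With limma-voom and quality weights neither gene was called (adjusted p = 0.169 for both). Krt16, which pairs with the KRT6 proteins, measured 179, 635, 246 and 142 at 6 and 539, 911, 4761 and 519 at 15 months, a change of 2.06 ± 0.58 (SE, adjusted p = 0.141). Without 15-month replicate 3 the change of Krt16 was 1.33 (adjusted p = 0.354). Krt6a, the near-identical neighbour of Krt6b with which reads may be shared, measured 3089, 5888, 4758 and 4299.8 at 6 and 3888, 3309, 13732 and 4489.8 at 15 months, a change of 0.27 ± 0.41 (SE, adjusted p = 0.741). Cell division genes summed to 4851 to 5965 at 15 months and 2434 to 4345 at 6 months, with 0 of 12 called, and their part in these values was not tested. Krt6b, Krt2 and Krt16 at 15 months were picked for description after their values were seen.

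No other follicle keratin of this class was called. Krt17 had a log2 change of 0.08 ± 0.18 (SE, adjusted p = 0.912) at 30 months, Krt75, of the companion layer, of -0.53 ± 0.36 (SE, adjusted p = 0.598) and Krt79, of the follicle's upper canal, of 0.29 ± 0.14 (SE, adjusted p = 0.387). At 15 months the change of Krt79 was 0.53 ± 0.14 (SE, adjusted p = 0.123).

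Simple keratins were low in Skin. Krt18 measured 5.56, 22.6, 74.5 and 22.9 at 6 months, 16.9, 16.7, 30.3 and 38 at 15 and 79.7, 50.1, 5.77 and 5.98 at 24 months. At 30 months it measured 6.47, 7.27, 4.31 and 6.36, a change of -1.71 ± 0.78 (SE, adjusted p = 0.349). Its highest libraries, 24-month replicates 1 and 2 and 6-month replicate 3, were also among the highest for hair keratins. Krt8 had a log2 change of -0.25 ± 0.47 (SE, adjusted p = 0.89), Krt7 of 0.65 ± 0.29 (SE, adjusted p = 0.336) and Krt19 of -0.46 ± 0.49 (SE, adjusted p = 0.774) at 30 months. None of the 4 was called. Of the mucosal and other keratins, Krt4, the keratin of the oesophagus, had a log2 change of -0.78 ± 0.34 (SE, adjusted p = 0.329), Krt23 of 0.21 ± 0.26 (SE, adjusted p = 0.811) and Krt24 of 0.24 ± 0.26 (SE, adjusted p = 0.773).

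In Muscle the simple pair rose steeply with age from almost nothing. Krt18 measured 5.31, 23.2, 5.33 and 10.8 normalised reads at 6 months and 7.65, 14.8, 7.46 and 15.8 at 15 months. It measured 61.2, 77.1, 26.9 and 343 at 24 months and 207, 291, 143 and 206 at 30 months. Every library at 24 and at 30 months was above every library at 6 and 15 months. The log2 change was 3.0 ± 0.58 (SE, adjusted p = 0.0147) at 24 months and 4.32 ± 0.58 (SE, adjusted p = 0.000295) at 30 months. Without 24-month replicate 4, which held the highest value, the change at 24 months was 2.31 (adjusted p = 0.0311). The 24-month call was lost without 6-month replicate 1 or 3 (adjusted p up to 0.0603), and the 30-month call was kept without each library in turn (adjusted p up to 0.00192).

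Krt8 followed at a lower level. It measured 0, 2.78, 1.52 and 0.902 at 6 months and 1.27, 5.91, 0 and 3.39 at 15 months. At 24 months it measured 6.89, 7.91, 10.1 and 167, and at 30 months 33.5, 30.1, 27.3 and 48. All 4 libraries at 30 months were above all at 6 and 15 months, and 24-month replicate 4 was far above every other library. The log2 change at 30 months was 4.08 ± 0.81 (SE, adjusted p = 0.00445). Since the 6-month values are a few reads, its size depends on the pseudocount, 2.65 with 5 and 5.36 with 0.1. At 24 months the change was 3.21 ± 0.81 (SE, adjusted p = 0.0556), and 2.16 without replicate 4 (adjusted p = 0.115).

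Of 6 members tested in Muscle among 14561 genes, 3 were higher and none lower at 30 months (13.1% of all genes called, 6.15% higher). The third was Krt80, which measured 48.7, 64.8, 63.9 and 62.2 at 6 months and 83.7, 95.6, 153 and 97.8 at 30 months, a change of 0.80 ± 0.17 (SE, adjusted p = 0.00543). At 24 months Krt18 was the member called (1.77% of all genes). At 15 months the member called was Krt222, an atypical type I keratin (0.604%), chosen for description after its values were seen. It measured 45.2, 32.4, 40.3 and 28 at 6 and 14, 13.3, 10.4 and 6.79 at 15 months, a change of -1.65 ± 0.34 (SE, adjusted p = 0.0349). That call was lost without any single 6-month library, and on leaving out, each alone, 15-month replicates 2 to 4 and 24-month replicates 2 and 3 (adjusted p up to 0.141). Krt19, a simple type I keratin, had a log2 change of 0.04 ± 0.35 (SE, adjusted p = 0.955), and Krt7 was below the filter with 0 to 8.86 normalised reads.

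**Figure D4:**
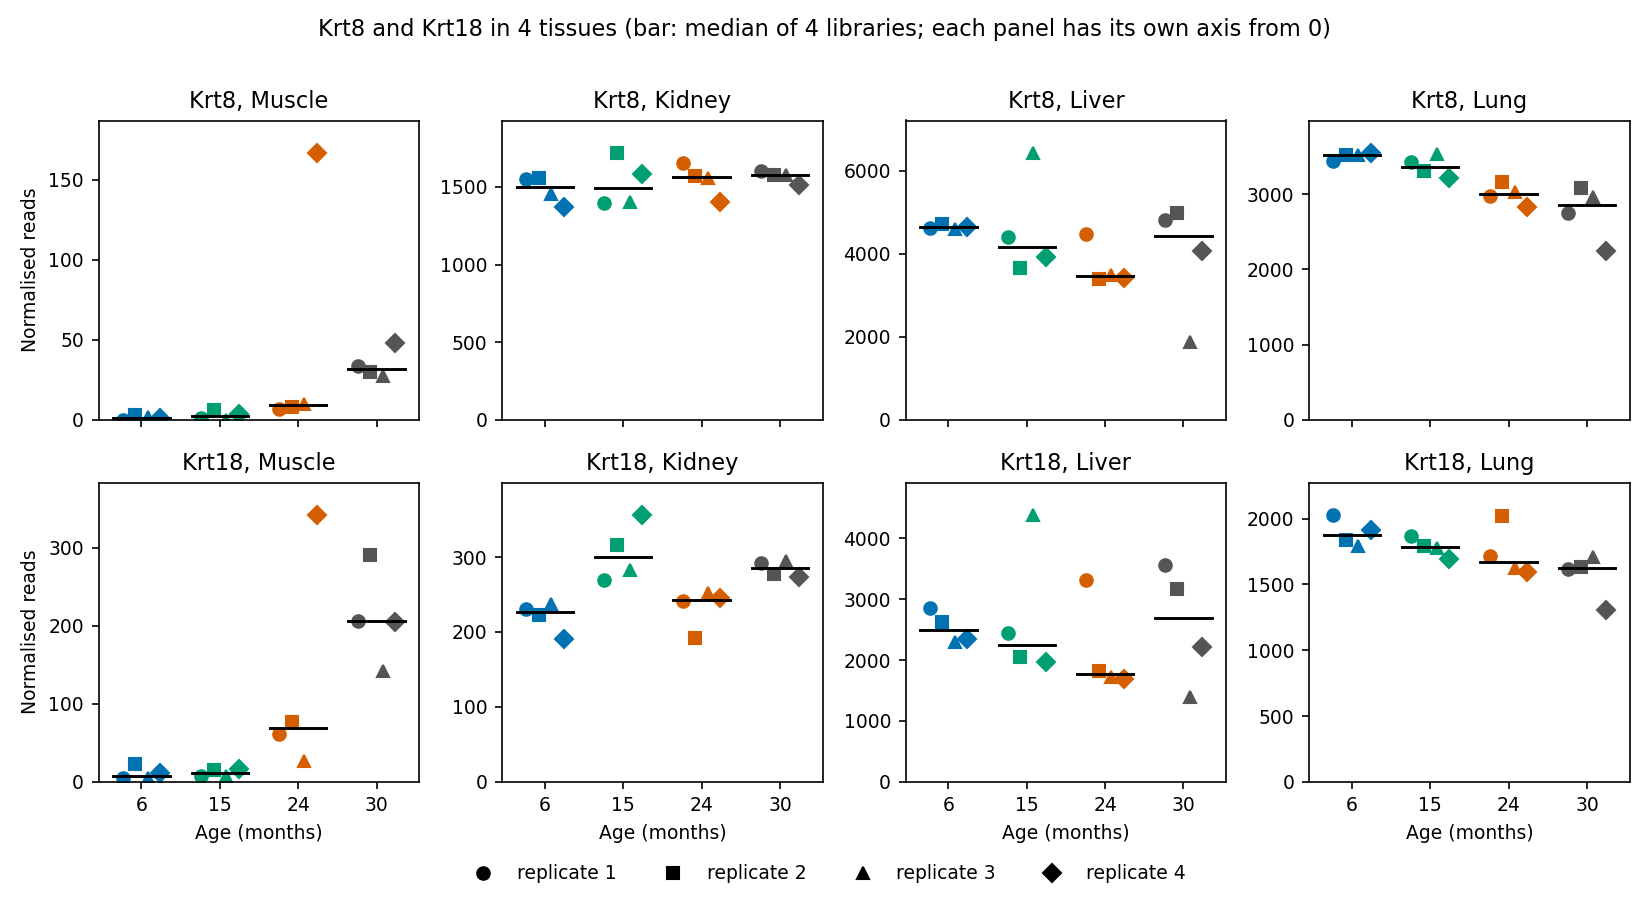
Normalised reads of Krt8 (upper row) and Krt18 (lower row) against age in months in Muscle, Kidney, Liver and Lung, with a point per library, a bar at the median of 4 and an own vertical axis from 0 in each panel. In Muscle the 30-month points lie above the 6-month and 15-month points for both genes, and 24-month replicate 4 is the highest point in each panel.

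Several defining markers of other epithelia were low in Muscle at every age. Epcam, the general epithelial adhesion molecule, lay between 0 and 2.96 normalised reads over all 16 libraries, the mesothelial gene Upk3b between 0 and 1.121, and Krt5, Krt14 and Krt15 were each at 0 in 15 of 16 libraries. General epithelial markers summed to 29.8 to 38.1 at 6 months and 32.8 to 47.6 at 30 months, with 0 of 2 tested members called. Among them Cdh1, the epithelial cadherin, was not near 0. It measured 20.4, 14.8, 19.8 and 12.6 at 6 months and 27.6, 16.4, 27.3 and 30.8 at 30 months. Mesothelial markers summed to 42.4 to 62.0 and 48.3 to 98.6. Among them Msln reached 51.1 in 30-month replicate 3, against 5.61 to 26.3 in the other 15 libraries. Epidermal genes other than keratins, a list of 17, summed to 1986 to 2195 at 6 months and 2448 to 3528 at 30 months. Of 8 tested, 2 were higher at 30 months: Trp63, the transcription factor of basal epithelium, by 1.22 ± 0.13 (SE, adjusted p = 6.32e-05) and Perp, a desmosomal gene, by 0.67 ± 0.16 (SE, adjusted p = 0.0108). The part of these genes in the keratin values was not tested. The pseudogene Krt8-ps was at 0 in every Muscle library. Per kilobase, the ratio of Krt8 to Krt18 in Muscle at 30 months was 0.0759 to 0.171, against 3.92 to 4.16 in Kidney, 0.982 to 1.35 in Liver and 1.25 to 1.38 in Lung.

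Genes of denervated and regenerating muscle moved alongside. Of 12 in the list, 6 were higher and none lower at 30 months, among them Myh8 and Myh3, the myosins of newborn and embryonic fibres, by 1.38 ± 0.16 (SE, adjusted p = 7.15e-05) and 2.61 ± 0.30 (SE, adjusted p = 8.49e-05), and Gadd45a, a stress gene induced by loss of the nerve, by 2.18 ± 0.32 (SE, adjusted p = 0.000627). Summed, the list spanned 1568 to 1751 at 6 months and 2876 to 4122 at 30 months. In 24-month replicate 4, Krt8 reached 167 and Krt18 343. Chrng, the fetal receptor subunit, was at 49.3 there, against 1.72 to 11.9 in the other 24-month libraries. Myog, a factor of muscle formation, was at 238 against 37.05 to 86.96, and Myh3 at 229 against 89.7 to 133. Myh8, at 86.75, lay within the 80.99 to 96.44 of the others. These genes were picked for that library after their values were seen. Of 9 plakins, desmosomal genes and filament partners tested, 2 were higher: Pkp2, a desmosomal plaque protein, by 0.71 ± 0.13 (SE, adjusted p = 0.00246) and Des, the muscle intermediate filament, by 0.44 ± 0.10 (SE, adjusted p = 0.0107). These lists were drawn up with earlier results of these libraries known, and their part in the keratin values was not tested.

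The rise of the pair in Muscle differed from its course in Liver and in Kidney when the difference itself was tested over 17228 genes. For Krt18 the change from 6 to 30 months in Muscle exceeded that in Liver by 4.37 ± 0.59 (SE, adjusted p = 1.25e-06) and that in Kidney by 3.94 ± 0.59 (SE, adjusted p = 1.82e-05). For Krt8 it exceeded that in Liver by 4.42 ± 0.74 (SE, adjusted p = 3.69e-05) and that in Kidney by 4.0 ± 0.74 (SE, adjusted p = 0.000497). Of all genes, 18.7% differed between Muscle and Liver and 6.61% between Muscle and Kidney. Between Kidney and Liver (8.52% of all genes) the differences were 0.42 ± 0.59 (SE, adjusted p = 0.755) for Krt18 and 0.42 ± 0.74 (SE, adjusted p = 0.821) for Krt8, neither called.

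Kidney, whose tubules and collecting ducts are simple epithelia, showed small steps in the simple keratins. Of 10 members tested among 15625 genes, 3 were higher and 1 lower at 30 months (28.3% of all genes called, 14.1% higher and 14.2% lower). Krt18 measured 230.2, 222, 237 and 190.3 at 6 months and 292, 278, 294 and 273 at 30 months, a change of 0.37 ± 0.10 (SE, adjusted p = 0.013), with every 30-month library above every 6-month one. Krt19, a keratin of ducts, measured 56.6, 46.4, 64.7 and 55.7 at 6 and 79.5, 86, 115 and 109.5 at 30 months, a change of 0.79 ± 0.15 (SE, adjusted p = 0.00148). Krt5 measured 10.6, 12.5, 11.4 and 33.4 at 6 months and 27.5, 35.5, 26.1 and 49.5 at 30 months, a change of 1.10 ± 0.33 (SE, adjusted p = 0.0198), in which 6-month replicate 4 stood within the 30-month range. The call was lost when one of 6-month replicates 1 to 3, or 4 at 30 months, was left out (adjusted p up to 0.0628). Krt23, a low type I keratin, measured 26.9, 27.6, 27.9 and 20.2 at 6 months and 19.4, 15.9, 20.3 and 9.48 at 30 months, a change of -0.67 ± 0.24 (SE, adjusted p = 0.0456). That call was lost under edgeR and DESeq2 and without any 1 of 11 libraries (adjusted p up to 0.144, without 30-month replicate 4).

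Krt8, the leading Kidney member per kilobase, and Krt7 were not called. Krt8 measured 1548, 1555, 1455 and 1373 at 6 and 1599.8, 1575, 1574 and 1514 at 30 months, a change of 0.08 ± 0.07 (SE, adjusted p = 0.422) with a 95% interval from -0.07 to 0.23. Krt7, of the collecting duct, had a log2 change of 0.09 ± 0.09 (SE, adjusted p = 0.511), with an interval from -0.10 to 0.28. Krt20, a keratin of the urothelium that missed the mean of 10 and is therefore no member, rose at 30 months by 2.27 ± 0.34 (SE, adjusted p = 0.000222). It was singled out after its values were seen. Genes of tubule injury had 7 of 10 tested members higher at 30 months, Lcn2 by 3.18 ± 0.20 (SE, adjusted p = 1.82e-07), Vcam1 by 1.94 ± 0.14 (SE, adjusted p = 4e-07) and Spp1 by 0.99 ± 0.10 (SE, adjusted p = 8.62e-06), and their sum went from 11450 to 12920 at 6 months to 18900 to 24580 at 30 months. Urothelial markers had 0 of 5 members called, with sums of 178 to 198 and 200.1 to 254. Their part in the keratin values was not tested.

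In Liver the hepatocyte pair was not called, while Krt23 fell to a few reads. Of 6 members tested among 13420 genes, 1 was lower and none higher at 30 months (24.9% of all genes called, 11% lower). Krt23 measured 84.5, 40.5, 48.1 and 29.8 at 6 months and 30.6, 12.8, 2.07 and 31.1 at 15 months. It measured 4.49, 6.93, 16.9 and 1.29 at 24 months and 1.79, 0, 3.98 and 4.40 at 30 months. All libraries at 24 and 30 months were below all at 6 months. The change was -2.89 ± 0.78 (SE, adjusted p = 0.0253) at 24 months (11.6% of all genes called) and -4.03 ± 0.78 (SE, adjusted p = 0.00184) at 30 months. Its size at 30 months, where values are a few reads, was -5.11 with a pseudocount of 0.1 and -2.84 with 5. The 24-month call was lost with a pseudocount of 0.1 and without any 1 of 6-month replicates 1 to 3 or 24-month replicates 1, 2 or 4 (adjusted p up to 0.0806 without a library). Without 30-month replicate 3 the change at 30 months was -4.29 (adjusted p = 0.00284). The 24-month value was chosen for description after it was seen.

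Krt8 in Liver measured 4623, 4716, 4604 and 4643 at 6 months and 4413, 3656, 6436 and 3923 at 15 months. It measured 4482, 3392, 3488 and 3422 at 24 months and 4802, 4985, 1877 and 4053 at 30 months. The 6-month libraries were close together and 30-month replicate 3 was the lowest of all. The change at 30 months was -0.34 ± 0.24 (SE, adjusted p = 0.343), and -0.02 without that library. Krt18 measured 2851, 2633, 2293 and 2348 at 6 and 3564, 3174, 1402 and 2212 at 30 months, a change of -0.05 ± 0.29 (SE, adjusted p = 0.923), and 0.21 without 30-month replicate 3. Krt19, the bile duct keratin, had a log2 change of -0.64 ± 0.39 (SE, adjusted p = 0.258), and 0 of 5 bile duct markers were called. Epcam lay between 11.9 and 29.8 over the Liver libraries. General epithelial markers summed to 1331 to 1626 at 6 months, 818 to 984 at 24 and 749 to 1286 at 30 months. Of 3 tested, 2 were lower at 24 months and 1 at 30 months: Cdh1, the epithelial cadherin that hepatocytes also make, with log2 changes of -1.34 ± 0.26 (SE, adjusted p = 0.00539) and -1.53 ± 0.26 (SE, adjusted p = 0.000974), and Cldn3, a tight junction protein, with -0.46 ± 0.13 (SE, adjusted p = 0.031) at 24 months. Their part in the fall of Krt23 was not tested.

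In Lung, whose alveoli and airways are lined by simple epithelia, Krt8, Krt18 and Krt7 were modestly lower at 30 months. Of 14 members tested among 17112 genes, 6 were lower and none higher at 30 months (19.4% of all genes called, 8.64% lower). Krt8 measured 3439, 3525, 3523 and 3554 at 6 months and 2754, 3078, 2957 and 2246 at 30 months, a change of -0.36 ± 0.08 (SE, adjusted p = 0.00459), with every 30-month library below every 6-month one. Krt18 measured 2030.5, 1837, 1791 and 1913 at 6 months and 1614, 1636, 1705 and 1303 at 30 months, a change of -0.28 ± 0.08 (SE, adjusted p = 0.0296). Krt7, of alveolar and airway epithelium, measured 5694, 5661, 5830.3 and 5861 at 6 months and 4886, 5162, 5363 and 4003 at 30 months, a change of -0.26 ± 0.08 (SE, adjusted p = 0.0385). In all of them 30-month replicate 4 was lowest, and without it the changes were -0.26 for Krt8 (adjusted p = 0.00682), -0.20 for Krt18 (adjusted p = 0.0986) and -0.17 for Krt7 (adjusted p = 0.122). The Krt18 call was also lost without 6-month replicate 1, 2 or 4, and the Krt7 call without any single 6-month library or 30-month replicate 1. Krt19 had a log2 change of -0.18 ± 0.08 (SE, adjusted p = 0.122), which was not called.

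The other Lung calls were lower genes. Krt23 measured 311, 276, 271 and 249 at 6 and 216, 161, 195 and 122 at 30 months, a change of -0.70 ± 0.15 (SE, adjusted p = 0.00531). Krt15, a keratin of basal cells of the airway, measured 31.7, 88.7, 129 and 125 at 6 months and 30.0, 17, 62.7 and 29.3 at 30 months, a change of -1.37 ± 0.43 (SE, adjusted p = 0.0368). Krtap17-1 measured 25.7, 15.9, 14.3 and 14.7 at 6 months and 5.82, 6.05, 6.75 and 1.22 at 30 months, a change of -1.76 ± 0.37 (SE, adjusted p = 0.00438), with no overlap. Without 30-month replicate 4 the changes were -0.54 for Krt23 (adjusted p = 0.0149), -1.34 for Krt15 (adjusted p = 0.0825) and -1.33 for Krtap17-1 (adjusted p = 0.00875). The Krt15 call was also lost when one of 6-month replicates 2 to 4, or of 1 and 2 at 30 months, was left out (adjusted p up to 0.109). Krt80 had a log2 change of 0.34 ± 0.13 (SE, adjusted p = 0.0902). General epithelial markers moved alongside: 4 of 8 tested were lower at 30 months, Epcam with a log2 change of -0.33 ± 0.08 (SE, adjusted p = 0.011), and their sum went from 10190 to 11640 at 6 months to 7129 to 9804 at 30 months. Lung markers summed to 572100 to 671100 and 410000 to 538700, and of 13 plakins, desmosomal genes and filament partners 4 were lower. Their part in the keratin values was not tested.

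Heart, Aorta and Brain held few keratins. In Heart, 1 of 6 members tested among 14301 genes was called at 30 months, higher (5.15% of all genes called, 4.11% higher). It was Krt80, which measured 21.1, 35.1, 39.2 and 38.5 at 6 months and 48.9, 73.3, 61.4 and 70.1 at 15 months. It measured 59.2, 73.2, 82.8 and 41.5 at 24 months and 74.7, 89.3, 112 and 83.2 at 30 months, each library at 15, 24 and 30 months above all at 6 months. The change was 0.91 ± 0.23 (SE, adjusted p = 0.0333) at 24 months (4.92% of all genes called), a value chosen for description after it was seen, which lost its call without any single 6-month library or 24-month replicate 1, 2 or 3 (adjusted p up to 0.102), and 1.42 ± 0.23 (SE, adjusted p = 0.00185) at 30 months. Without 24-month replicate 4 the 24-month change was 1.10 (adjusted p = 0.004). Krt222 in Heart had a log2 change of -0.36 ± 0.14 (SE, adjusted p = 0.198) and Krt10 of -0.19 ± 0.23 (SE, adjusted p = 0.815). In Aorta, 1 of 8 members tested among 14980 genes was called, lower (5.67% of all genes called, 2.59% lower): Krt19 measured 134, 78.7, 74.4 and 118 at 6 and 66.1, 58.5, 43.5 and 30.6 at 30 months, a change of -1.03 ± 0.29 (SE, adjusted p = 0.0476). That call was lost without any 1 of 13 libraries (adjusted p up to 0.127, without 30-month replicate 4). Mesothelial markers in Aorta summed to 1050 to 1661 at 6 months and 374 to 1128 at 30 months, and their part in it was not tested. Krt79 in Aorta had a log2 change of 0.48 ± 0.28 (SE, adjusted p = 0.335) and Krt80 of 0.15 ± 0.19 (SE, adjusted p = 0.689).

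Brain had 11 members at a mean of 10 or more, several known from skin and cornea, and none of the 11 tested among 16190 genes was called at 30 months by limma, edgeR or DESeq2, with 0 at an unadjusted p below 0.05 in limma (7.5% of all genes called). Krt222, the leading member per kilobase, measured 943, 901, 889 and 799 at 6 and 946, 919.8, 1012 and 944 at 30 months, a change of 0.12 ± 0.06 (SE, adjusted p = 0.299). Krt9 had a log2 change of 0.25 ± 0.13 (SE, adjusted p = 0.276) and Krt12 of 0.26 ± 0.14 (SE, adjusted p = 0.297).

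**Figure D5:**
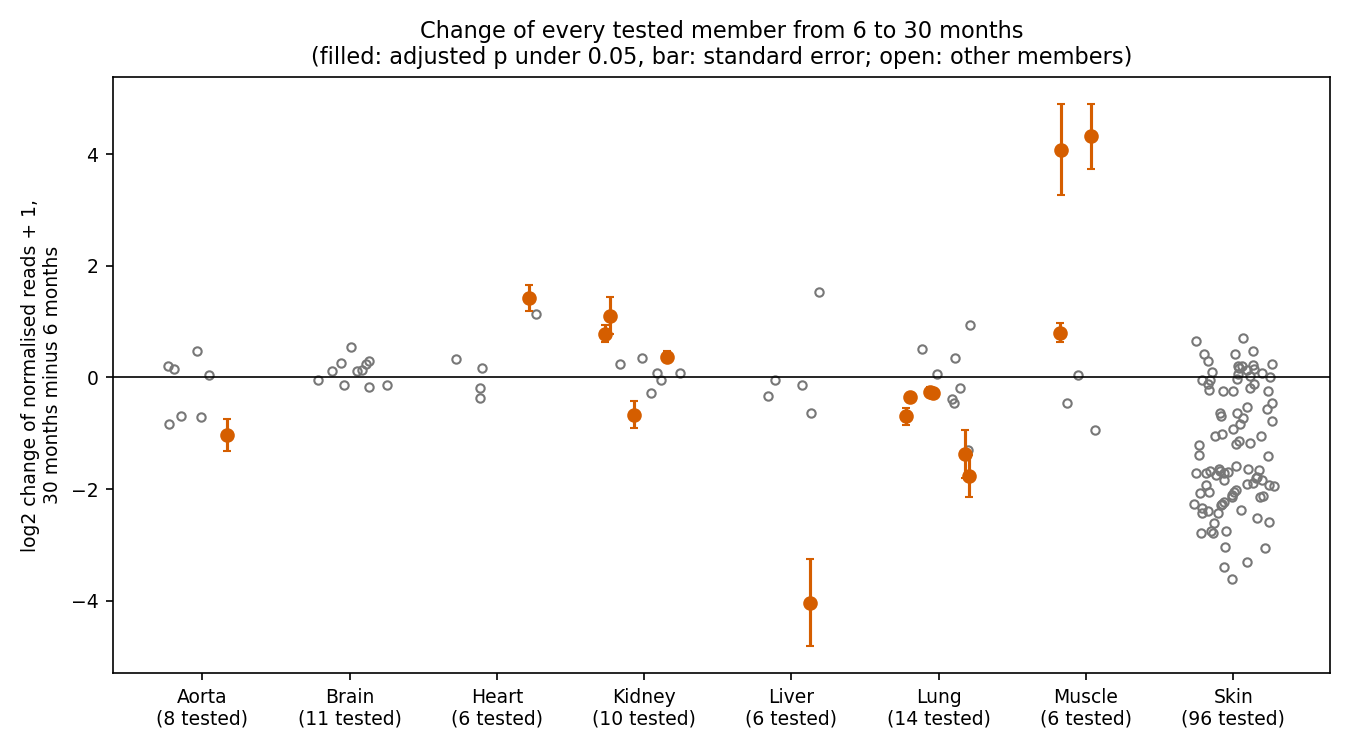
The log2 change from 6 to 30 months (vertical axis) of every tested member in each of the 8 tissues, with the number tested under the tissue's name. Filled points with standard error bars were called, namely 3 in Muscle, 4 in Kidney, 1 in Liver, 6 in Lung, 1 in Heart and 1 in Aorta, and open points were not; the open Skin points spread the widest.

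In reads per 1000000 recovered reads of each library, Krt8 and Krt18 were highest in Liver, Lung and Kidney. Krt8 stood at 206 ± 44.6 in Liver, 191 ± 22 in Lung and 94.5 ± 8.36 in Kidney (mean ± SD, n = 16 libraries over 4 ages). It stood at 2.16 ± 2.65 in Aorta, 1.89 ± 1.28 in Skin, 1.23 ± 2.33 in Muscle, 0.767 ± 0.325 in Brain and 0.234 ± 0.200 in Heart. Liver and Lung lay within an SD of each other, as did Aorta, Skin and Muscle. For Krt18 the values were 122 ± 39.1 in Liver, 106 ± 11.5 in Lung, 16.1 ± 2.86 in Kidney and 5.16 ± 6.44 in Muscle. They were 2.79 ± 1.69 in Aorta, 1.74 ± 1.74 in Skin, 1.43 ± 0.399 in Brain and 0.596 ± 0.241 in Heart. The other 5 tissues came in another order for each gene, and the Muscle mean pools ages that differ: Krt18 stood there at 0.617 ± 0.459 at 6 months and 12.3 ± 3.54 at 30 months (mean ± SD, n = 4). At 6 months Muscle lay below Aorta, Skin and Brain for Krt18, and at 30 months above them. The tables were normalised separately, so these levels across tissues carry no test.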

How the data were processed

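RNAiso Plus extracts of 8 tissues at 4 ages went into bulk libraries of the Illumina Stranded mRNA Prep kit, per the labels' protocols. The submitters' processing notes name the build GRCm39 and the tools STAR, RSEM, DESeq2 and FastQC, all with no version. The annotation, like the strand setting of the counts, is not given in those notes or in the other sources used. For each tissue the authors deposited a table of signal values, which are read counts divided by a size factor for each library. In every library 100% of the deposited values became whole reads (tolerance 0.01) after multiplication by 1 factor.

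Each tissue was fitted with 1 mean per age over its 16 libraries by limma-trend (limma 3.58.1, R 4.3.3) on log2(value + 1). Genes were kept by filterByExpr (edgeR 4.0.16, minimum count 10) on the recovered reads, two-sided p-values were adjusted over all genes of the tissue (Benjamini-Hochberg), and the threshold was 0.05. Differences between Muscle, Kidney and Liver were tested in 1 fit over 17228 genes. Alternatives were edgeR's quasi-likelihood test and DESeq2 1.42.0 on recovered reads, limma-voom with quality weights, TMM scaling, no filter, pseudocounts of 0.1 and 5, a replicate block, the 2 ages alone and each library left out. On the recovered reads, edgeR called 2047 genes in Muscle and 127 in Skin at 30 months. The design had foreseen classes of keratin-associated proteins by their protein sequence, which could not be made here, so they form 1 class. Tables were drawn up with Python 3.11.15, pandas 2.3.3 and matplotlib 3.10.9, and the tests were checked on simulated data. Of simulated 2-fold changes at 30 months, 47.8% were called in Skin, the least of all tissues, against 68.7% (Liver) to 85.1% (Muscle) elsewhere. Of simulated calls, 3.09% (Kidney) to 8.63% (Aorta) were false, with 7.58% in Liver.

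The members, classes and gene lists were chosen with earlier results of these data known. Named genes were, in Skin, the 4 tested members of highest mean in each class; the simple keratins of Muscle, Kidney, Liver and Lung; the 3 highest and 3 lowest changes among called members of each tissue; the 3 members of highest mean in Aorta, Brain, Heart and Lung; and, of other lists, the 3 of smallest adjusted p at 30 months. Genes of other lists named at 24 months in Skin, and those said to be so, were picked after their values were seen. Promoters come from RefSeq (GRCm38.p6) and exon lengths from GENCODE M21 (100 of 100 members matched). Chi-square per degree of freedom was 2.49 or more for replicates of a group, so no library was a copy of another of its tissue and age. Copies between ages or tissues were not looked for. Deviations from the age mean in same-numbered libraries of different ages had a mean r of 0.031 to 0.045 in 7 tissues and -0.056 in Skin. For differently numbered libraries the mean r was -0.015 to -0.01 in those 7 tissues and 0.019 in Skin. The difference was not tested, and the numbers were not taken as a pairing across the ages of a tissue. Equal numbers in different tissues were not compared, and the labels do not say whether they mark the same animal. The test of differences between Muscle, Kidney and Liver treated all libraries as independent.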

Additional observations from a re-analysis of the deposited data

Results flagged for a closer look

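A search for a library that stands far from the other 3 of its tissue and age covered 276 groups of 4 values of named members. The search used log2(normalised reads + 1) and a gap over range above 0.829. It found 18 (6.52%), and chance flags about 1 in 20 groups. Skin gave 6 of them: in 24-month replicate 1, Krt1 was at 4966 normalised reads against 8112 to 8326 in the others, Krt15 at 16340 against 29160 to 29960 and Krt24 at 102 against 154 to 167. In 24-month replicate 2, Krt4 was at 8.88 against 23.1 to 25.7. Krt4 was at 38.5 in 15-month replicate 2 against 24.4 to 26.3, and Krt75 at 4478 in 6-month replicate 2 against 1821 to 1913.

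In Kidney, 6-month replicate 4 had Krt5 at 33.4 against 10.6 to 12.5 and Krt23 at 20.3 against 26.9 to 27.9. Krt7 was at 1113 in 6-month replicate 2 against 1203 to 1220, and Krt18 at 192 in 24-month replicate 2 against 241 to 252. In Liver, 24-month replicate 1 was high in both members of the simple pair, Krt8 at 4482 against 3392 to 3488 and Krt18 at 3314 against 1695 to 1822. In Muscle, Krt8 was at 167 in 24-month replicate 4 against 6.89 to 10.1, and Krt80 at 48.7 in 6-month replicate 1 against 62.2 to 64.8. In Lung, Krt7 was at 4505 in 24-month replicate 4 against 5241 to 5395, and Krtap17-1 at 1.22 in 30-month replicate 4 against 5.82 to 6.75. In Heart, Krt10 was at 22.7 in 15-month replicate 3 against 25.1 to 25.4, and Krt222 at 319 in 6-month replicate 4 against 375 to 383.

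The change of the simple pair from 6 to 30 months differed between tissues by a test of the difference itself. The Muscle change exceeded the Liver change by 4.37 for Krt18 and 4.42 for Krt8 on the log2 scale, and the Kidney change by 3.94 for Krt18 and 4.0 for Krt8.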

How the results depend on the processing

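The 23 main results, with 753 alternatives in all, were counts of called members and single changes, or differences of changes, of Krt8 and Krt18. A count was said to move when it changed by more than 1.5 times, or to or from 0. In 46 alternatives a count moved, over 9 results. The 753 include alternatives of the single changes and differences, which hold no count that could move. No called change of a named gene changed sign, while some that were not called did, such as Krtap8-1 in Skin at 24 months. In Aorta the 1 call at 30 months became 0 under edgeR, with no filter, with the replicate block and with the 2 ages alone, and ranged from 0 to 1 when a library was left out. In Heart the count was 2 under voom and with the 2 ages alone, against 1, and 1 to 2 with a library left out (2 without 24-month replicate 4). In Kidney it was 2 with the 2 ages alone, against 4, and 2 to 5 with a library left out, with 2 without 6-month replicates 1, 2 or 3 or 30-month replicate 4. In Liver it was 2 under DESeq2, against 1, and 1 to 2 with a library left out (2 without 30-month replicate 4). In Lung it was 3 with the 2 ages alone, against 6, and 3 to 8 with a library left out, with 3 without 6-month replicates 2 or 4 or 30-month replicate 4. In Skin at 15 months it was 6 under DESeq2 (4 higher and 2 lower: Krt6b, Krt2, Krt16 and Krt79 higher, Krt15 and Krt80 lower), 0 under voom and 1 with the 2 ages alone, against 2, and 1 to 2 with a library left out. At 24 months DESeq2 called 1 and at 30 months voom called 1, against 0. For any difference among the ages in Skin DESeq2 called 10, against 2, and the count was 1 to 3 with a library left out. The replicate block, which the labels' numbers do not justify as a pairing, changed no other count of called members by more than 1.5 times: Krt18 in Muscle kept 4.32 and Krt8 4.08. Of 4023 alternatives for 161 named changes, 96 lost a call, over 12 changes, and 29 gained one, over 13. Krt18 in Muscle at 24 months lost its call without 6-month replicate 1 or 3. DESeq2 gave no adjusted p for Krt8 in Muscle at 30 months. Depth limits the low genes most: Krt8 in Muscle and Krt23 in Liver rest on a few reads in their low groups.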

Other observations

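Some genes outside the keratins changed in the same comparisons and are given as values. In Skin at 30 months Col1a1, the main collagen of the dermis, was lower, with a log2 change of -2.48 ± 0.40 (SE, adjusted p = 0.0161). In Skin at 24 months Aurkb and Birc5, genes of cell division, were higher by 1.29 ± 0.29 (SE, adjusted p = 0.0379) and 1.20 ± 0.28 (SE, adjusted p = 0.0407). Neither was called without 24-month replicate 1 (adjusted p = 0.128 and 0.14) or 2 (adjusted p = 0.109 and 0.12). Dsc2, a desmosomal cadherin of the hair shaft and sheath, was lower in Skin at 30 months, with a log2 change of -0.89 ± 0.18 (SE, adjusted p = 0.0344). These genes were picked after their values were seen.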
